A study of Homo sapiens with 4 samples.

Results

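The genes described here are 9 human metallothionein genes, MT1A, MT1B, MT1E, MT1F, MT1G, MT1H, MT1M, MT1X and MT2A, together with MTF1, the transcription factor that controls them. They were chosen as a named family, and every probe whose accession belongs to one of the 10 genes was taken, which gave 13 probes among 25122 genes with a symbol on the array. Metallothioneins are small cysteine-rich proteins that bind zinc and copper in the cell and also bind toxic metals such as cadmium. When free zinc rises, MTF1 enters the nucleus and binds metal response elements, short sequences upstream of the metallothionein genes, and their transcription rises. Prostate epithelium is known for its high zinc content, and metallothionein levels have long been followed in prostate tumours.

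RNA was measured in PC3 and DU145 cells, both established androgen-independent prostate cancer cell lines, on 4 one-colour Agilent arrays, 1 for each condition. PC3-shC and DU145-shC cells carried an shRNA against luciferase, and PC3-shESS2 and DU145-shESS2 cells carried an shRNA against ESS2, a nuclear protein that acts as a transcriptional coregulator. According to the labels all 4 cell populations were made with lentivirus, whereas the methods of the study describe plasmid transfection and puromycin selection for PC3, with a control plasmid treated alike. The labels give neither a metal treatment nor a time after knockdown, and all cells were grown in RPMI 1640 medium with 10% serum.

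As each condition had a single array, a ratio between 2 arrays cannot be checked against replicates, and p-values are left out within a cell line. The small number of arrays sets the precision throughout. Both PC3 arrays lay on 1 slide and were scanned together, and both DU145 arrays on another, so the slide and the cell line cannot be told apart. On each array, 50.8 to 52.6% of the spots other than controls stood well above background, and none was saturated. ESS2 itself gave signals of 133 in PC3-shC and 53.6 in PC3-shESS2 cells, 2.74-fold lower, and of 85.7 in DU145-shC and 17.3 in DU145-shESS2 cells, 5.09-fold lower. Of the markers of the lines, the epithelial keratins KRT8 and KRT18 were well above background on all 4 arrays, the prostate antigen gene KLK3 was not on any, and the catenin gene CTNNA1 was well above background in DU145 cells only. The precision of a single spot came from probes spotted 10 times on each array, whose log2 ratio of knockdown to control had a median SD over the spots of 0.084 in PC3 and 0.082 in DU145. That spread covers the spots of an array and neither the hybridization nor the cells.

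Metal response elements are the sequence feature that joins MTF1 to its targets, so they are shown first. The promoter table, taken from RefSeq on GRCh38.p14, held MT2A, MT1B, MT1H, MT1X and MTF1, and the promoters of MT1A, MT1E, MT1F, MT1G and MT1M are not analysed here. In each window, from 250 bases before to 50 bases after the annotated start, both strands were searched for the 7-base core written TGCACNC or TGCGCNC, and a place that holds 1 form cannot also hold the other. MT2A and MT1H each held 8 matches, MT1X 4 and MT1B 3, and MTF1 held 0. Of all 35116 promoters given, 29.6% held at least 1 match, 2.30% held 3 or more, 0.601% held 4 or more and 0.0199% held 8 or more. All 4 metallothionein promoters shared a layout close to the start, with a match on the reverse strand followed by a match on the forward strand. These pairs are printed below 5′ to 3′ on the plus strand of GRCh38.p14, which is also the strand of the genes, with the core in capitals and 10 bases on each side. In the first of each pair the core is on the reverse strand, so the capitals are its reverse complement, and the position is that of the leftmost capital relative to the start.
MT2A at -88, chr16:56608486-56608512: agcgcggggcGTGTGCAggcagcgccc
MT2A at -54, chr16:56608520-56608546: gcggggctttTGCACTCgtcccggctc
MT1B at -79, chr16:56651797-56651823: cagcaggggtGAGTGCAagggccaggg
MT1B at -53, chr16:56651823-56651849: gcggggcctcTGCACCCcaccacctcc
MT1H at -78, chr16:56669726-56669752: tcagtgggtcGGGTGCAagggtggggc
MT1H at -53, chr16:56669751-56669777: gcagggtctcTGCACCCggctccctcc
MT1X at -78, chr16:56682382-56682408: cagcaggggcGGGTGCAaggacgaggc
MT1X at -53, chr16:56682407-56682433: gcggggcctcTGCGCCCggccctcttc

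**Figure D1:**
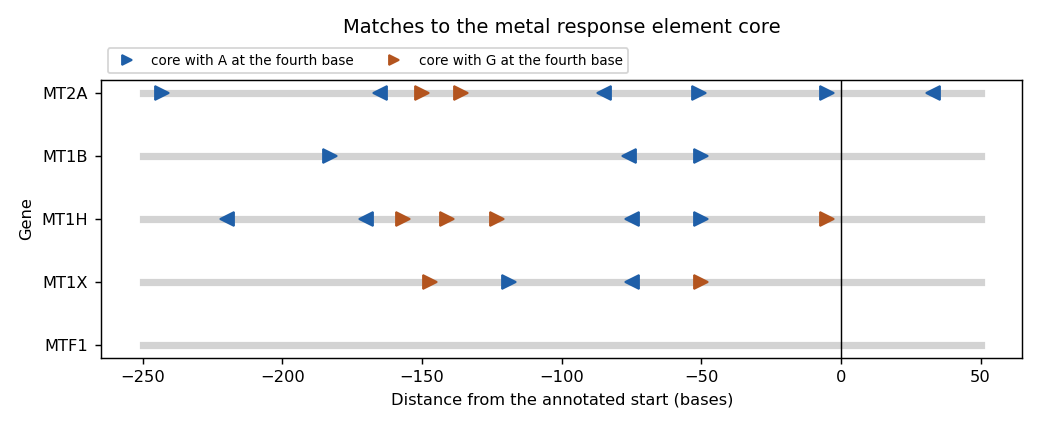
Matches to the metal response element core in the 5 promoters of the table, by distance in bases from the annotated start; arrowheads give the strand and colours the 2 forms of the core, with A or with G as the fourth base, and grey bars are the windows searched. MT2A and MT1H carried 8 matches each, MT1X 4, MT1B 3 and MTF1 0.

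A match to the core is a description of the sequence and not a measured binding site. Even among the 4 promoters with the shared pair, the signals on the arrays fell into different classes, because the MT1H probe was at background on every array whereas the MT2A, MT1B and MT1X probes were well above it on every array.

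Of the 10 genes, 8 were well above background on at least 1 array and 7 on all 4. MT1G and MT1H, both MT1 isoform genes, were the exceptions. The MT1G probe gave signals of 2.19, 2.3, 2.65 and 2.05 in PC3-shC, PC3-shESS2, DU145-shC and DU145-shESS2 cells, and the MT1H probe 1.96, 2.03, 1.98 and 1.8. The lowest signals counted as well above background lay between 8.15 and 9.02, so neither gene had a measurable level and no fold is given for them. MT1M stood between the groups, as its probe was well above background in DU145 and not in PC3. The metallothionein coding sequences are close copies of each other, and a probe of one may bind the RNA of another, so each value below is that of a probe and only provisionally that of its gene. On the PC3-shC array the probes of MT1M, MT1G and MT1H were not well above background while those of MT1A, MT1B, MT1F, MT1X and MT2A were. The array files used here hold no probe sequences, and the share of signal from other members was not tested.

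**Figure D2:**
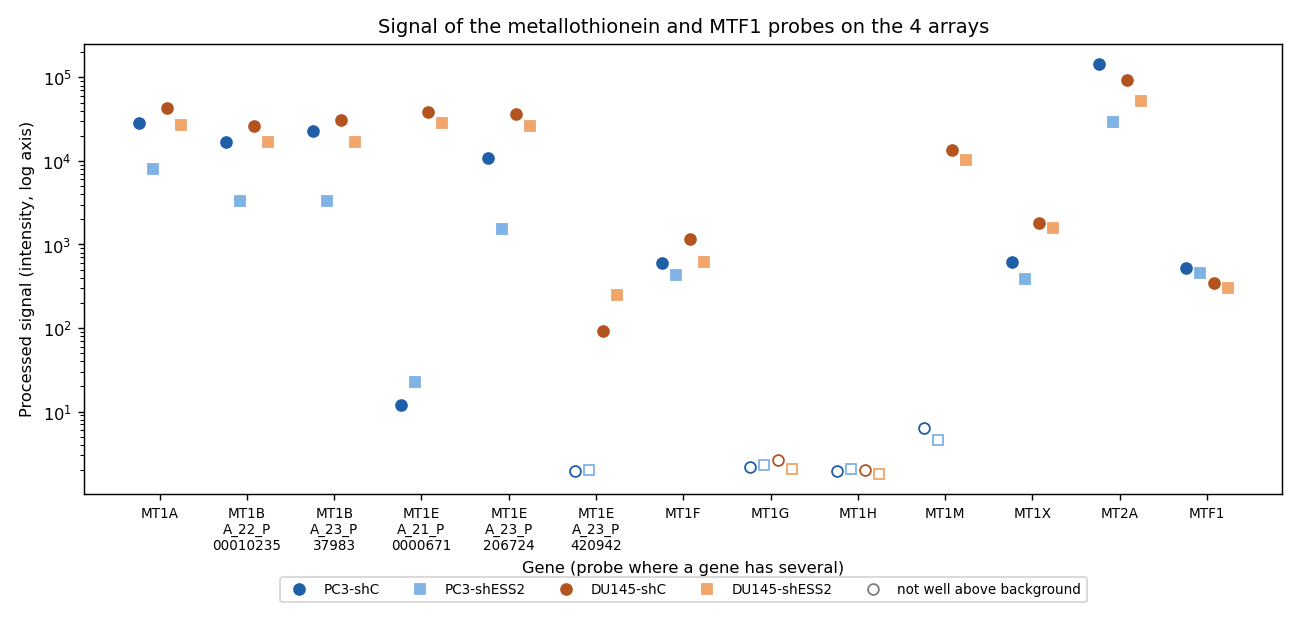
Processed signal (intensity, log axis) of each of the 13 probes on the 4 arrays, with 1 point for each array and open symbols where the probe was not well above background. Within a probe, the points compare arrays; heights of different probes are not comparable. In 8 of the probes the PC3-shESS2 point lies below the PC3-shC point with both above background, and MT1G and MT1H are open on all arrays.

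In PC3 cells, the metallothionein genes were lower after ESS2 knockdown. All 7 of the genes that could be compared were lower in PC3-shESS2 than in PC3-shC cells, against 55.7% of all genes. These included 4 genes more than 2-fold lower, MT1A, MT1B, MT1E and MT2A, whereas 3.87% of all 16764 genes compared were more than 2-fold lower. The median log2 ratio of the 6 metallothioneins was -2.20 and that of all genes -0.06. Here and below, the signal of an array was divided by its 75th percentile before ratios were taken.

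MT2A encodes the single human metallothionein 2, usually the most abundant isoform. Its signal was 143000 in PC3-shC and 28900 in PC3-shESS2 cells, with 92100 in DU145-shC and 52200 in DU145-shESS2 cells. PC3-shESS2 was the lowest of the 4 arrays, and the log2 ratio of knockdown to control in PC3 was -2.45, or 5.46-fold lower. MT1A, an MT1 isoform gene of the same cluster, gave 28500 in PC3-shC, 8110 in PC3-shESS2, 43600 in DU145-shC and 26600 in DU145-shESS2 cells. Again PC3-shESS2 was lowest, and the log2 ratio in PC3 was -1.95, or 3.87-fold lower.

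MT1B was measured by 2 probes, which gave similar ratios. Probe A_23_P37983 gave 22600, 3270, 30800 and 16900 in PC3-shC, PC3-shESS2, DU145-shC and DU145-shESS2 cells, and its log2 ratio in PC3 was -2.93, or 7.62-fold lower. Probe A_22_P00010235 gave 16900, 3270, 26500 and 16800, and its log2 ratio was -2.51, or 5.70-fold lower. Their ratios in PC3 differed by more than the spread between spots, while both were past 2-fold in the same direction.

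The remaining metallothioneins that could be compared in PC3 were lower by less than 2-fold. MT1F gave 603 in PC3-shC and 432 in PC3-shESS2 cells, a log2 ratio of -0.62. MT1X gave 624 and 391, a log2 ratio of -0.82, or 1.76-fold lower. Both differences exceeded the spread between spots. MTF1 gave 528 and 452, a log2 ratio of -0.37, so the transcript of the regulator was lower by less than those of the metallothioneins.

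MT1E was the member whose probes disagreed. Its brightest probe, A_23_P206724, gave 10800 in PC3-shC, 1540 in PC3-shESS2, 36300 in DU145-shC and 25900 in DU145-shESS2 cells, and its log2 ratio in PC3 of -2.95, or 7.73-fold lower, and that of MT1B with A_23_P37983 were the lowest among the members and differed by less than 1 SD between spots. Probe A_21_P0000671 gave 11.9, 22.3, 38400 and 28600. It was thus barely above background in PC3, where the knockdown array was the higher one at a log2 ratio of 0.77, and bright in DU145. Probe A_23_P420942 gave 1.95 and 2 in PC3, not well above background, and 91.4 and 245 in DU145. The newer annotation release of the array assigns the last 2 probes to a second MT1E transcript, and the older one places A_21_P0000671 on the same transcript as A_23_P206724. With the probes of the gene averaged, MT1E had a log2 ratio of -0.77 in PC3 and 0.13 in DU145, so its call past 2-fold rests on A_23_P206724.

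**Figure D3:**
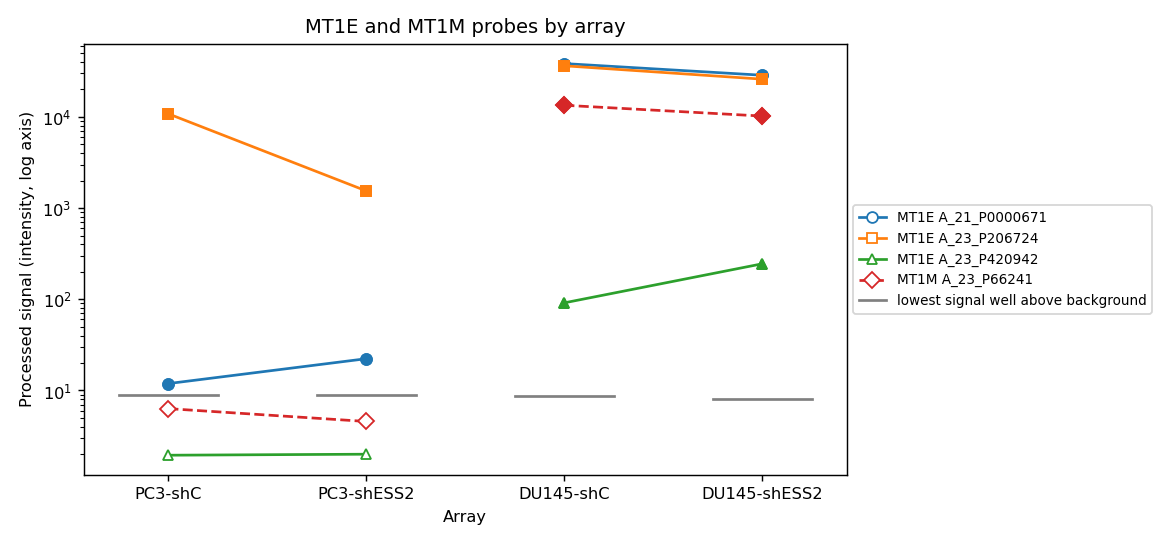
Processed signal (intensity, log axis) of the 3 MT1E probes and the MT1M probe on the 4 arrays, with open symbols where a probe was not well above background and grey bars at the lowest signal counted as well above background on each array. Lines join the 2 arrays of a cell line. MT1E probe A_23_P206724 stood at 10800 and 1540 on the PC3 arrays, A_21_P0000671 stood at 11.9 and 22.3 there and at 38400 and 28600 in DU145, and MT1M was open in PC3 and at 13400 and 10200 in DU145.

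In DU145 cells, the same genes were also lower in the knockdown cells, but by less than 2-fold. All 8 of the genes that could be compared were lower in DU145-shESS2 than in DU145-shC cells, against 52.8% of all genes. Among these 8 genes, 0 passed 2-fold, against 2.47% of the 16842 genes compared that were more than 2-fold lower. The median log2 ratio of the 7 metallothioneins was -0.75 and that of all genes -0.02. MT1F, at 1170 and 623, had the lowest ratio, -0.95 or 1.93-fold lower. MT1B followed at -0.91 with A_23_P37983 and -0.70 with A_22_P00010235, then MT2A at -0.86, or 1.81-fold lower, and MT1A at -0.75, or 1.69-fold lower. MT1F and MT1B with A_23_P37983, and this probe and MT2A, differed by less than 1 SD between spots. MT1E was at -0.53 with A_23_P206724 and at -0.47 with A_21_P0000671, and MT1M, at 13400 and 10200, was at -0.43. MT1X, at 1800 and 1570, had a log2 ratio of -0.24, and MTF1, at 343 and 303, of -0.22. MT1E probe A_23_P420942 was the exception among the probes, with 91.4 in DU145-shC and 245 in DU145-shESS2 cells, 2.61-fold higher.

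**Figure D4:**
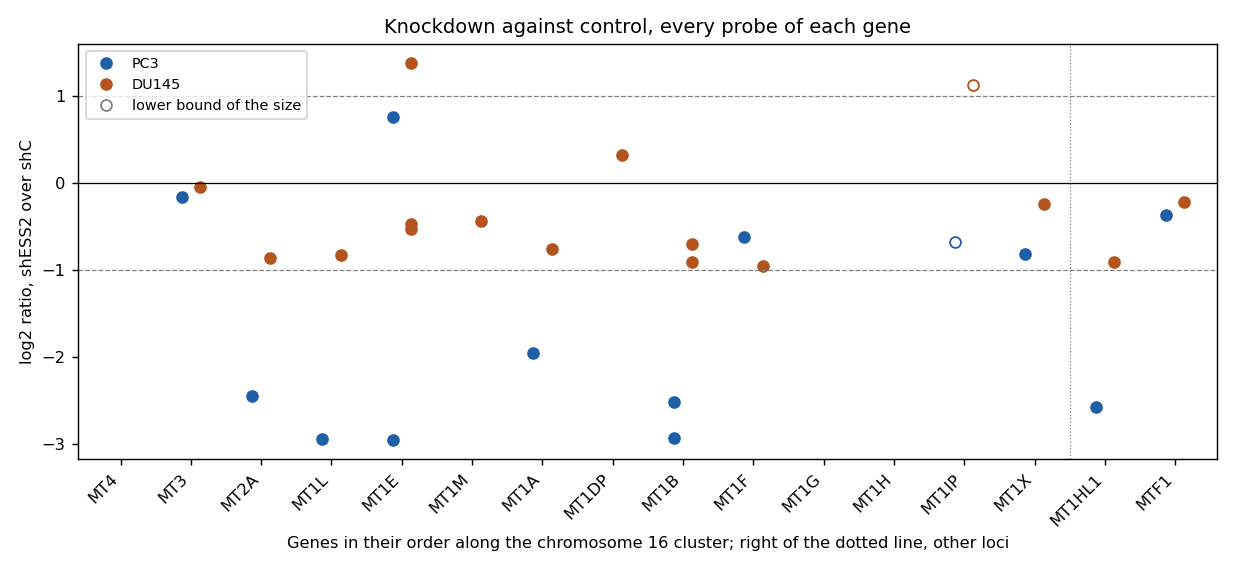
Log2 ratio of shESS2 to shC for every probe of the members and of the other metallothionein genes, with PC3 in blue and DU145 in orange; genes are in their order along the chromosome 16 cluster, with MT1HL1 and MTF1 to the right of the dotted line. Dashed lines mark 2-fold, and open symbols, labelled as lower bounds, are ratios with 1 array not well above background. In PC3 the probes of MT2A, MT1L, MT1A, MT1B and MT1HL1 and 1 probe of MT1E lie between -2.95 and -1.95, and in DU145 those of the same genes lie between -0.91 and -0.47, apart from the third MT1E probe at 1.38.

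The ratios were further from 0 in PC3 than in DU145 for 6 of the 7 genes compared in both lines. The difference of the log2 ratios, PC3 minus DU145, was -2.42 for MT1E with A_23_P206724, -2.02 for MT1B with A_23_P37983, -1.59 for MT2A and -1.20 for MT1A. These 4 genes were past 2-fold, against 4.54% of all 15478 genes whose difference was more than 2-fold lower in PC3, and the median over the 6 metallothioneins was -1.39. The difference was -0.58 for MT1X, -0.15 for MTF1 and 0.33 for MT1F, for which the ratio was lower in DU145. With 1 array for each condition these differences have no test. ESS2 itself went the other way, with log2 ratios of -1.45 in PC3 and -2.35 in DU145.

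Across both cell lines, limma was fitted with the line as a block over the 4 arrays, which leaves 1 residual degree of freedom. It called 0 of 17126 genes for the knockdown at an adjusted p of 0.05, the smallest adjusted p was 0.746, and 1047 genes, 6.11%, had an unadjusted p under 0.05. The metallothioneins were among the genes that did not pass. The fitted log2 ratios were -1.92 ± 0.55 (SE) for MT1B, -1.74 ± 0.64 for MT1E, -1.65 ± 0.44 for MT2A, -1.35 ± 0.35 for MT1A, -0.79 ± 0.20 for MT1F and -0.53 ± 0.23 for MT1X, all with a limma adjusted p of 0.746. All 6 were lower in the knockdown cells of both lines, with the brightest probe standing for each gene. With the probes of a gene averaged, the fitted log2 ratio of MT1E was -0.32, and its ratio in DU145 was 0.13. The cell lines are no replicates of each other, and the residual of this fit is their difference in response.

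Before knockdown, the lines differed most in MT1M and MT1E. Between the controls, 6 of the 8 genes compared were lower in PC3-shC than in DU145-shC cells, against 45.6% of all 17475 genes. Among them 4 genes, MT1E, MT1F, MT1M and MT1X, were more than 2-fold lower, against 19.9% of all genes. MT1M entered this comparison only through DU145-shC, so the filter set its direction in advance. With signal well above background required on both arrays, 3 of 7 genes were more than 2-fold lower, against 16.1% of 14961 genes. The median over the 7 metallothioneins was -1.27 and over all genes 0.12. MT1M gave 6.32 in PC3-shC, not well above background, and 13400 in DU145-shC cells, so it was at least 1859-fold lower in PC3. For such a bound the dim signal was raised to the lowest signal well above background on its array, and with normexp background correction the bound for MT1M was 236-fold. MT1E was 4.17-fold lower in PC3-shC cells with A_23_P206724, 4003-fold lower with A_21_P0000671 and at least 12.7-fold lower with A_23_P420942. The sizes for the last 2 probes depended on the background correction, as with normexp they were 572-fold for A_21_P0000671, whose PC3-shC signal of 11.9 lay near the lowest counted as well above background, 8.94, and 3.01-fold for A_23_P420942.

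MT1X was 3.58-fold and MT1F 2.41-fold lower in PC3-shC than in DU145-shC cells. MT1A had a log2 ratio of -0.92 and MT1B of -0.76 with A_23_P37983 and -0.96 with A_22_P00010235, both under 2-fold. MT2A and MTF1 were the genes on the other side, with log2 ratios of 0.32 and 0.31. Their sign depended on the scaling, because with the authors' scaled values they were -0.13 and -0.14 while the median of all genes moved from 0.12 to -0.33. Relative to that median, MT2A stood 0.20 higher and MTF1 0.19 higher under both.

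In the limma fit, with both shRNAs in each line, 8958 genes differed between the lines, 23.8% of all genes lower in PC3 and 28.5% higher. MT1X (adjusted p = 0.0062), MT1F (adjusted p = 0.017), MT1E (adjusted p = 0.021) and MT1A (adjusted p = 0.031) were lower in PC3 by limma with Benjamini-Hochberg adjustment. MT1M entered this fit only through the 2 DU145 arrays, and both its PC3 values were raised to the lowest signal well above background. The filter thus set its direction in advance, and its p-value is left out. MT1B (adjusted p = 0.061), MT2A (adjusted p = 0.41) and MTF1 (adjusted p = 0.32) did not pass. Over 9 alternatives the limma adjusted p of MT1A ran from 0.020 to 0.12, that of MT1E from 0.0032 to 0.11, that of MT1F from 0.0084 to 0.070 and that of MT1B from 0.028 to 0.20. With no filter on dim genes MT1A, MT1E and MT1F no longer passed (limma adjusted p = 0.12, 0.11 and 0.057), and MT1A also missed the threshold with arrays scaled to the median (0.056). Without the shRNA term MT1A and MT1F missed it too (0.12 and 0.070).

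Of the metallothionein genes outside the chosen 10, MT1L and MT1HL1 were more than 2-fold lower in PC3-shESS2 cells and MT3 was not. MT1L, annotated as a transcribed pseudogene, gave 26100, 3740, 36400 and 21200 in PC3-shC, PC3-shESS2, DU145-shC and DU145-shESS2 cells, 7.70-fold lower in PC3 and 1.77-fold lower in DU145. MT1HL1, a relative of MT1H on chromosome 1, gave 14100, 2610, 25600 and 14100, 5.96-fold and 1.87-fold lower. MT3, best known from the brain, gave 1960, 1940, 1380 and 1380, and its log2 ratios were -0.16 and -0.04.

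MT3 lies in the same cluster, next to MT2A, and its ratios were close to the medians of all genes while MT2A was lower. MT1DP, a pseudogene, was not well above background in PC3, and in DU145 it gave 35.3 and 45.4, a log2 ratio of 0.32. MT1IP, another pseudogene, was at 15.5, 10.7, 9.86 and 22.2, of which the middle pair was not well above background. It was 1.60-fold lower in PC3 and 2.19-fold higher in DU145, and both folds are uncertain because they rest on these dim signals. MT4, a gene of stratified epithelia, was not well above background on any array.

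The genes on both sides of the cluster were compared too. Of 8 flanking genes compared, 6 were lower in PC3-shESS2 cells with a median log2 ratio of -0.12, and 0 were more than 2-fold lower. HERPUD1, a gene of the endoplasmic reticulum stress response, was 2.17-fold higher in PC3-shESS2 cells. In DU145, 2 of the 8 flanking genes were lower and the median was 0.13.

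Other genes of metal handling are given as counts of those lower in the knockdown cells, beside 55.7% of all genes lower in PC3 and 52.8% in DU145. Of the zinc exporters of the SLC30 family, 2 of 7 were lower in PC3-shESS2 cells (median 0.16) and 1 of 8 in DU145-shESS2 cells (median 0.25). SLC30A1, the plasma membrane exporter and a direct target of MTF1, gave 383 in PC3-shC and 316 in PC3-shESS2 cells, a log2 ratio of -0.42. In DU145 it gave 182 and 158, a log2 ratio of -0.24, and in both lines it was thus closer to MTF1 than to MT2A. SLC30A3, a vesicular zinc transporter, gave 30.2 and 70.1 in PC3 and was 2.11-fold higher. Of the zinc importers of the SLC39 family, 6 of 12 were lower in PC3 (median -0.02) and 4 of 12 in DU145 (median 0.15), and 0 passed 2-fold in either line.

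Of 14 copper handling genes compared in PC3, 9 were lower (median -0.18). The metalloreductases STEAP2 and STEAP4 were 3.60-fold and 2.42-fold lower, and SLC31A2, a copper transporter of the endosome, was higher at a log2 ratio of 1.58. In DU145, 4 of 13 were lower (median 0.06) and 0 passed 2-fold. Of the iron handling genes, 6 of 13 were lower in PC3 (median 0.09) and 5 of 14 in DU145 (median 0.02), where SLC40A1, the iron exporter ferroportin, was 3.03-fold higher.

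Metallothionein genes also respond to oxidative stress, heat and glucocorticoids, so 3 lists of such genes were described. Of the NRF2 targets and glutathione genes, 8 of 13 were lower in PC3 (median -0.07) and 9 of 12 in DU145 (median -0.15), where the cystine transporter gene SLC7A11 was 2.59-fold lower. Of the heat shock genes, 12 of 13 were lower in PC3 (median -0.22) and 7 of 13 in DU145 (median -0.02), and 0 passed 2-fold in either line. Of the glucocorticoid receptor gene and its targets, 5 of 10 were lower in PC3 (median 0.00) and 1 of 10 in DU145 (median 0.24). The kinase gene SGK1 was 2.05-fold lower in PC3.

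The profile of the family over the 4 arrays was compared with that of 14676 genes well above background on all of them. The mean centred log2 profile of the 6 metallothioneins was 0.12, -1.83, 1.21 and 0.50 in PC3-shC, PC3-shESS2, DU145-shC and DU145-shESS2 cells. By Euclidean distance over these 4 points genes outside the family among the 5 nearest were CBX3P2 (0.25), FHOD3 (0.49), GACAT2 (0.49) and LIMCH1 (0.52), and the members' own distances ran from 0.19 for MT1A to 1.72 for MT1E. FHOD3, a formin that acts on actin, gave 1950, 712, 2810 and 1810. Over 4 arrays many genes share a profile, and the likeness is given as a description only.

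Markers of other cell types were read beside the PC3 result. Of 8 markers of leukocytes, endothelium and fibroblasts, 6 were well above background on each PC3 array and 4 on each DU145 array. Their summed signal over the 75th percentile of the array was 3.53 in PC3-shC and 1.44 in PC3-shESS2 cells, and 1.52 in DU145-shC and 1.99 in DU145-shESS2 cells. The leukocyte marker CD3E and the fibroblast marker COL1A2 were not well above background on any array. The markers went both ways in PC3. The endothelial marker PECAM1 gave 338 in PC3-shC and 16.4 in PC3-shESS2 cells, and the leukocyte marker CD14 gave 221 and 54.7. The fibroblast marker COL1A1 gave 265 and 197 and the leukocyte marker PTPRC 59.7 and 60, the latter on arrays whose 75th percentiles were 263 and 290. The fibroblast marker LUM gave 9.9 and 48.8 and the endothelial marker VWF 24.4 and 30.4. Their part in the metallothionein result was not tested. A lower signal in a culture also does not tell less RNA in every cell from fewer cells with the RNA.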

How the data were processed

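RNA of 4 cell populations was hybridized to 1 array each, from 0.1 µg of total RNA per the labels. The authors deposited, for each array, the spot intensity given by Agilent Feature Extraction (12.1.0.3 for PC3, 12.0.3.1 for DU145), with background subtracted and no scaling between arrays. A table of scaled intensity values was deposited as well, and dividing it by the processed signal gave 1 factor for each array (3.65, 3.52, 6.17 and 6.09 in the order PC3-shC, PC3-shESS2, DU145-shC, DU145-shESS2). Control and outlier spots were left out, and log2 values were set relative to the 75th percentile of each array. Spots of a probe were averaged, and the probe brightest on average over the arrays stood for its gene. A gene entered a comparison when either array had it well above background. Dim values under the lowest signal well above background on their array were raised to it. Symbols came from the probe accessions, matched without versions to a RefSeq table of GRCh38.p14 (35080 of 58201 probes). The PC3 and DU145 files carry different annotation releases, with the same accession for 85.5% of spots, and probe coordinates were not used because the array design has another genome build.

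limma (3.58.1, in R 4.3.3) was fitted to genes that 2 or more arrays had well above background, and p-values were adjusted by Benjamini and Hochberg at 0.05. Other steps used Python 3.11.15, numpy 2.4.6, pandas 2.3.3 and matplotlib 3.10.9, and were tested on simulated data. The members and the gene lists were chosen with earlier results of these data known. The genes named are the members, ESS2, the other metallothionein genes, SLC30A1, up to 4 genes of a list past 2-fold with the largest ratios, and the 5 nearest profiles. Markers of cell type and line were named in addition, as a check. Some genes that these rules select are not reported here. Alternatives were quantile normalization, scaling to the median, normexp (offset 50) on the median spot signal, keeping dim genes, requiring signal above background on every array compared, averaging the probes of a gene, taking each probe alone, keeping outlier spots, the authors' scaled values, and limma without the line or the shRNA term.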

Additional observations from a re-analysis of the deposited data

Results flagged for a closer look

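MT1E probe A_21_P0000671 went in opposite directions in the cell lines, with a log2 ratio of knockdown to control of 0.77 in PC3 and -0.47 in DU145. Its PC3 signals, 11.9 and 22.3, were close to the lowest signal well above background, and with normexp background correction the PC3 ratio was 0.11. The MT1IP probe also went in opposite directions, with -0.68 in PC3 and 1.13 in DU145. Both ratios are uncertain because 1 array of each pair was not well above background. With 1 array for each condition, neither difference between the lines was tested.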

How the results depend on the processing

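No paired analysis was possible because each condition had 1 array and the labels carry no replicate numbers, other than the pairing of knockdown with control within a line that the limma fit already holds. For the same reason no replicate could be left out. Each slide held 1 cell line, so the line block of that fit is also a slide block, and none was run apart from it. Of 246 values of single member probes under 8 alternatives, which leave out averaging the probes of a gene, 169 moved by less than the spread between spots, 75 moved by more in the same direction, and 2 reversed: the PC3-shC over DU145-shC ratios of MT2A (-0.13) and MTF1 (-0.14) with the authors' scaled values. MT1A, MT1E (A_23_P206724), MT2A and both MT1B probes stayed past 2-fold in PC3 in 8 of 8 alternatives, while with the mean of a gene's probes 3 genes were past 2-fold in place of 4, and MT1E in DU145 reversed from -0.53 to 0.13. In DU145, 1 member passed 2-fold downward with quantile normalization (MT1F, -1.01), and with each probe on its own 1 was past 2-fold higher (MT1E A_23_P420942). For PC3 minus DU145, 1 probe was more than 2-fold higher with each probe on its own (MT1E A_21_P0000671, 1.23). Between the controls, 3 to 6 members were more than 2-fold lower in PC3; the median of all genes moved to 0.58 with median scaling and to -0.33 with the authors' values. The share of all calls past 2-fold that were lower went from 47.4% to 27.9% and 68.3% under those settings, in PC3 from 49.96% to 61.1% with median scaling and 40.3% with the authors' values, and in DU145 from 51.2% to 35.6% with normexp. The knockdown fit called 0 genes under every alternative run, and the fit of the lines called 4974 genes with no filter on dim genes, which tested 25121 genes, in place of 8958. The MT1M bound between the lines was a log2 ratio of -7.88 with normexp, against -10.86. The causes of these shifts were not tested.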
